A study of Oryza sativa Japonica Group and Oryza sativa Indica Group with 10 samples.

Results

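Plants read changes in cytosolic calcium with several families of proteins, and 65 probe sets of 3 of these families are described here. They are the calcineurin B-like sensors (CBL), the CBL-interacting protein kinases (CIPK) and the calcium-dependent protein kinases (CPK, also written CDPK). A probe set is a group of short probes on the array that together measure 1 transcript. The members were all probe sets that the platform annotation pairs with exactly 1 gene and whose gene carries a symbol or synonym CBL, CIPK, CPK or CDPK with a number, with or without the prefix Os. They were taken by name and not by signal. They make up 65 of the 57258 rice probe sets on the array and 65 of the 22436 that are paired with exactly 1 gene, and they belong to 51 of 17905 paired genes. CBL gave 8 probe sets of 7 genes, CIPK 34 of 24 genes and CPK 23 of 20 genes. The gene table lists 63 genes with such names, and the other 12 had no probe set paired with them alone.

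RNA of young rice panicles 2 cm long was measured on Affymetrix GeneChip rice arrays, 1 array per sample, with 5 biological replicates of 93-11, an indica cultivar, and 5 of Nipponbare, a japonica cultivar. The labels name no treatment. The deposited value is 1 signal per probe set and array on a linear scale. Both cultivars are inbred lines, and each sample is a bulk of panicle tissue, so that fewer cells of a type and less RNA per cell cannot be told apart. A base difference under a probe can lower its signal, so less transcript in 93-11 and a 93-11 base difference under the probes cannot be told apart either.

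A CBL protein binds calcium through EF hands, has no enzyme activity of its own, and switches on a CIPK by binding to the NAF motif in the regulatory part of the kinase. Many CBL proteins carry a lipid at the amino end, so that the pair CBL and CIPK is brought to the plasma membrane or the vacuolar membrane, where it phosphorylates ion transporters. A CPK needs no such partner, since its kinase domain and a calmodulin-like domain with EF hands lie in 1 protein. In rice and Arabidopsis these families are best known from salt, potassium, nitrate, drought and cold responses and from pollen tubes.

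The arrays were not on a common level. The trimmed mean signal of an array, with 2% of the probe sets removed at each end, was 213 ± 18.5 in 93-11 and 277 ± 62.4 in Nipponbare (SD, n = 5 each). Nipponbare replicate 2 had the highest trimmed mean, 377, and Nipponbare replicate 5, at 205, lay inside the 93-11 range of 196 to 235. Of the 65 members, 43 had their highest deposited signal on Nipponbare replicate 2 and 20 their lowest on Nipponbare replicate 5. The differences and calls of the members are therefore given as deposited and after scaling every array to a common trimmed mean, when 2 members had their highest signal on Nipponbare replicate 2 and 8 their lowest on Nipponbare replicate 5. Over all rice probe sets this scaling moved the median difference of 93-11 minus Nipponbare, on the log2(signal + 16) scale, from -0.16 to 0.03.

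The tissue label was set against marker genes. Of 22 probe sets of young panicle genes, among them many floral MADS genes, 18 lay above a mean log10 signal of 2.5 in both cultivars as deposited and 17 after scaling, and their summed deposited signal was 31740 to 42870 in 93-11 and 37670 to 56910 in Nipponbare. Markers of other tissues also differed between the cultivars. Of 12 probe sets of leaf genes, 8 were lower in 93-11 as deposited and none was higher by the limma test used throughout, with a summed deposited signal of 819 to 2871 in 93-11 and 13090 to 21720 in Nipponbare, and 2 of 4 probe sets of meiocyte genes were lower in 93-11 as deposited, with sums of 1066 to 2247 in 93-11 and 3720 to 7524 in Nipponbare. After scaling the same numbers were lower, 8 and 2, and 1 leaf probe set, of OsrbcS (0.87), and 1 meiocyte probe set, of DMC1 (0.69), were higher in 93-11. Of the young panicle probe sets, 1 was higher and 3 were lower as deposited, and 5 were higher and 2 lower after scaling. No leaf marker was at 0, and the light-harvesting gene CAB2R read 573 ± 573 in 93-11 and 8948 ± 2044 in Nipponbare on the stronger of its probe sets. Markers of anther and tapetum, root and endosperm lay below 2.5 in both cultivars, and 1 of their 18 probe sets was lower in 93-11 in each fit and 1, of the endosperm gene GLUA2, higher after scaling alone. These differences run along with every cultivar difference given below, and their part in them was not tested.

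A probe set was called expressed in a cultivar where its log10 signal, averaged over the 5 arrays, exceeded 2.5. The paper used 2.5 for the median log10 probe intensity of a set, to mark high expression, and not for these deposited signals. No detection call was used, so a member below this level is not shown to be absent. By this rule 26 of the 65 members were expressed in both cultivars as deposited, 40.0%, against 19.2% of all rice probe sets and 40.1% of those paired with 1 gene, and 25 members after scaling, against 19.6% and 40.9%. The share was 3 of 8 for CBL, 12 of 34 for CIPK and 11 of 23 for CPK, or 37.5%, 35.3% and 47.8%, as deposited, and after scaling it was the same but for CIPK, with 11 of 34. With the strongest probe set of each gene alone, the deposited share was 3 of 7, 12 of 24 and 11 of 20 genes. A single member was expressed in 1 cultivar alone as deposited, the second of the 3 OsCIPK02 probe sets, which had a signal of 247 ± 97.0 in 93-11 and 419 ± 108 in Nipponbare, while 3.66% of all rice probe sets were so in Nipponbare alone and 0.629% in 93-11 alone. After scaling, 3 more members, OsCIPK21, OsCIPK24 and OsCPK4, were above the threshold in 93-11 alone, as were 1.62% of all rice probe sets, and the same OsCIPK02 probe set was in Nipponbare alone, as were 2.18%. The median of the members' mean log10 signals, as deposited, was 2.1 in 93-11 and 2.42 in Nipponbare for CBL, 2.14 and 2.18 for CIPK, and 2.46 in both cultivars for CPK.

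**Figure D1:**
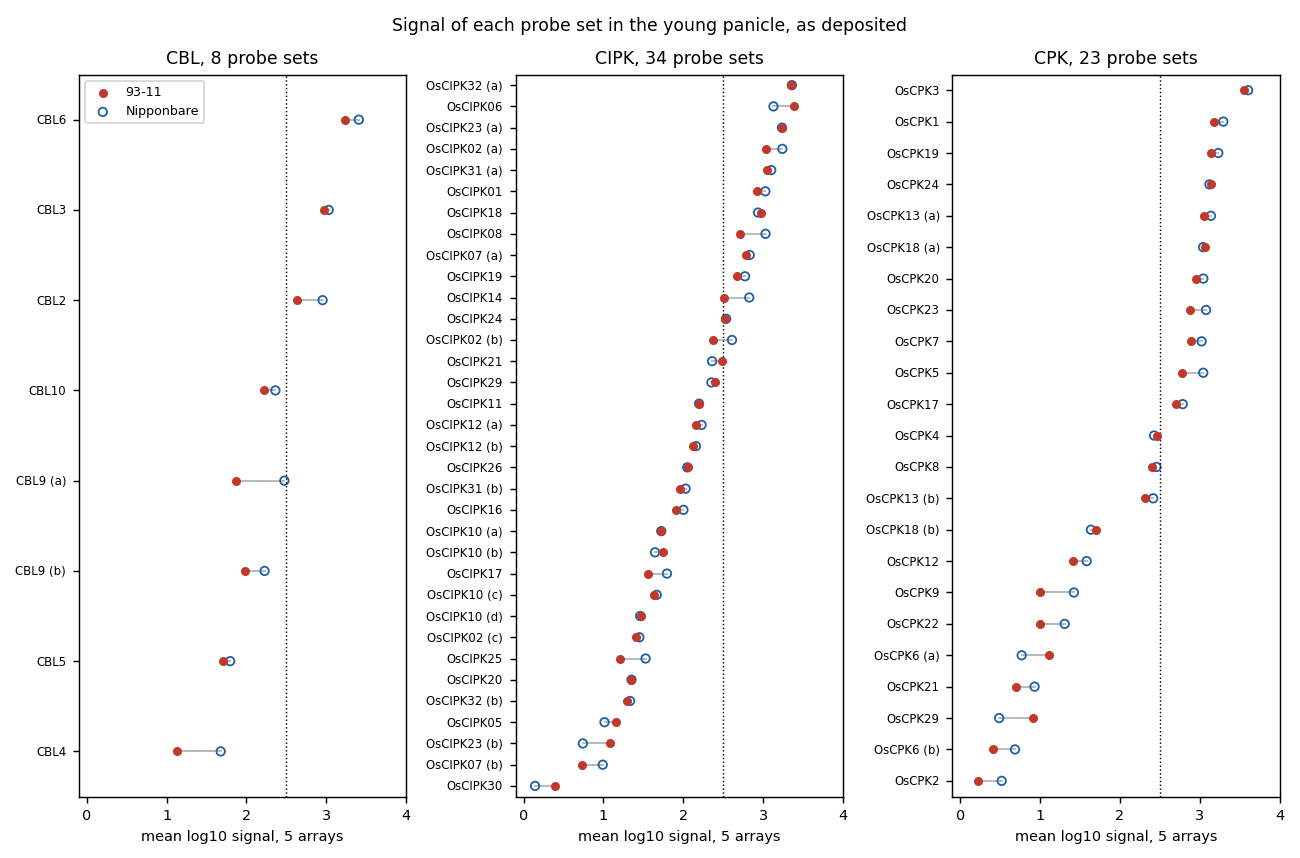
Mean log10 signal as deposited over the 5 arrays of 93-11 (filled red) and of Nipponbare (open blue) for each of the 65 probe sets, in 3 panels by class, with probe sets of 1 gene lettered from the strongest. The dotted line is the threshold of 2.5. In both cultivars 26 of the 65 probe sets lie right of it, and each of the 8 CBL probe sets has its 93-11 point left of its Nipponbare point in these unscaled values. By the fitted log2 difference, 17725 of the 22436 probe sets paired with 1 gene were also lower in 93-11 as deposited.

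Signals order probe sets and not transcripts, because probes differ in how well they bind, so the order below is one of signals. The strongest member in both cultivars was OsCPK3, with signals of 4143, 3572, 4024, 3109 and 2899 on the 93-11 arrays, against 4382, 5948, 3988, 3543 and 2817 on the Nipponbare arrays. Its log2 difference was -0.19 as deposited (95% interval -0.60 to 0.22) and 0.17 after scaling (-0.03 to 0.36), and it was not called. OsCPK1 followed among the CPK genes with 1502 ± 133 in 93-11 and 2023 ± 566 in Nipponbare (SD, n = 5 each, here and below). OsCPK19 had 1398 ± 104 in 93-11 and 1724 ± 345 in Nipponbare. Neither was called, and the scaled intervals ran from -0.22 to 0.16 for OsCPK1 and from -0.07 to 0.22 for OsCPK19. The 11 expressed CPK probe sets also held OsCPK13, whose overexpression protects rice from cold, salt and drought, at 1152 ± 379.9 in 93-11 and 1444 ± 522 in Nipponbare on the stronger of its probe sets, without a call.

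Among the kinases that need a CBL, OsCIPK32 gave the strongest signal over the 10 arrays, with 2212 ± 169 in 93-11 and 2327 ± 425 in Nipponbare on its stronger probe set. OsCIPK23, which activates the potassium channel OsAKT1 in rice roots, read 2300.1, 1958, 1549, 1527 and 1420.2 on the 93-11 arrays, against 1779.7, 2432, 1972, 1619.8 and 1103 on the Nipponbare arrays. The cultivars overlapped, and the difference was -0.0022 as deposited and 0.35 after scaling (adjusted p = 0.997 and 0.0767). OsCIPK24, the rice counterpart of the Arabidopsis salt tolerance kinase SOS2, stood near the threshold with 338 ± 70.0 in 93-11 and 355 ± 99.8 in Nipponbare. Its usual sensor partner CBL4, the counterpart of SOS3, had the lowest CBL signal. At the low end were OsCIPK30, with 5.10 ± 6.40 in 93-11 and 1.64 ± 0.97 in Nipponbare, and OsCPK2, with 2.99 ± 4.26 in 93-11 and 5.07 ± 3.86 in Nipponbare. Of the 65 members, 26 had a mean log10 signal under 2.0 over the 10 arrays and 8 one under 1.0.

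CBL2, CBL4, CBL9, OsCIPK08, OsCIPK14, OsCPK5 and OsCPK23 gave lower signals in 93-11 than in Nipponbare, and OsCIPK06 a higher one, both as deposited and after scaling. Apart from the scaled call of OsCIPK14, and counting the first of the CBL9 probe sets, these calls held in all 10 fits that left out 1 array. The difference between the cultivars was tested with limma on log2(signal + 16) for all 57258 rice probe sets, as 93-11 minus Nipponbare, and a member was called if its adjusted p was under 0.05. As deposited, 1 member was higher and 9 were lower in 93-11, against a background of 1.66% higher and 11.9% lower over all rice probe sets and of 1.68% and 17.8% over those paired with 1 gene. After scaling, 7 were higher and 7 lower, against 7.84% and 9.21% of all rice probe sets and 12.6% and 13.6% of those paired with 1 gene. Shares of 1.54% higher and 13.8% lower as deposited, and of 10.8% each way after scaling, were near this background. The member called higher as deposited was also called higher after scaling, 7 of the 9 lower ones were also called lower after scaling, and 6 were called higher after scaling alone. The arrays of the cultivars did not overlap for 1 higher and 6 lower members as deposited, when 1.47% and 10.4% of all rice probe sets did so, and for 5 higher and 6 lower members after scaling, when 6.55% and 8.02% did.

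**Figure D2:**
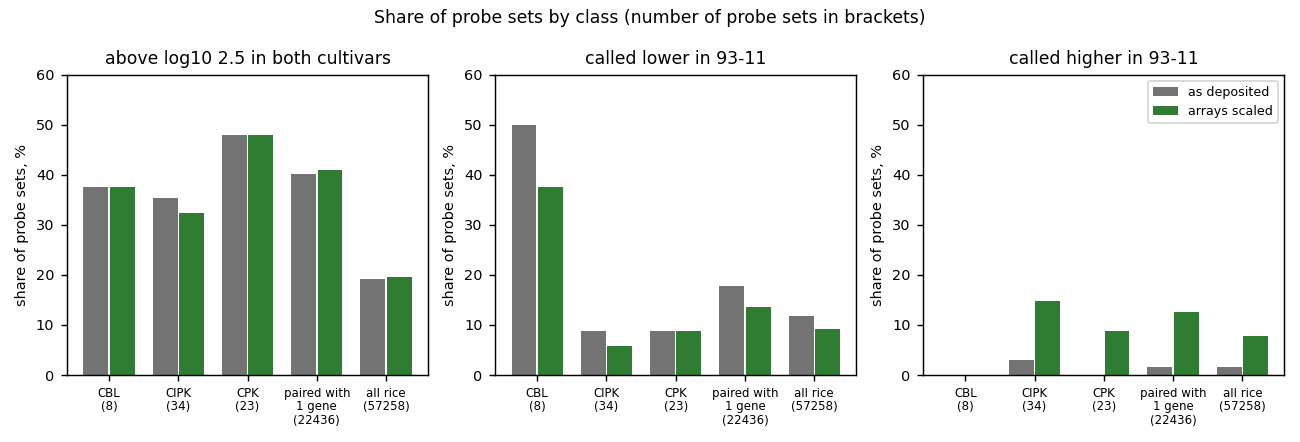
Share of probe sets in percent that lay above the mean log10 signal of 2.5 in both cultivars, that were called lower in 93-11 and that were called higher in 93-11, for the 3 classes, for probe sets paired with 1 gene and for all rice probe sets, as deposited (grey) and scaled (green). The number of probe sets in each group is given in brackets. Of the 8 CBL probe sets, 4 were called lower as deposited and 3 after scaling, and none was called higher.

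Lower signals in 93-11 were most frequent among the CBL sensors. As deposited, CBL had 0 members higher and 4 of 8 lower, CIPK 1 of 34 higher and 3 lower, and CPK 0 of 23 higher and 2 lower. After scaling the counts were 0 higher and 3 lower for CBL, 5 and 2 for CIPK, and 2 and 2 for CPK. The median difference was -0.65 for CBL, -0.07 for CIPK and -0.28 for CPK as deposited. Beside these stood -0.16 for all rice probe sets and -0.24 for those paired with 1 gene. After scaling the class medians were -0.32, 0.20 and 0.05, beside 0.03 for all rice probe sets and 0.05 for those paired with 1 gene. All 8 CBL probe sets had a difference below 0 as deposited, 6 after scaling and 5 after quantile normalization, while CBL2, CBL4 and the first CBL9 probe set were called lower in all 3. Most probe sets lay below 0 as deposited. Of the 22436 paired with 1 gene, 17725 did so as deposited and 9862 after scaling. For CIPK the sign of the median turned with the scaling, as it did for CPK, for all rice probe sets and for those paired with 1 gene. Of the 34 CIPK differences, 24 were below 0 as deposited and 8 after scaling. The 8 CBL probe sets are 7 genes, and whether the classes differ was not tested.

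**Figure D3:**
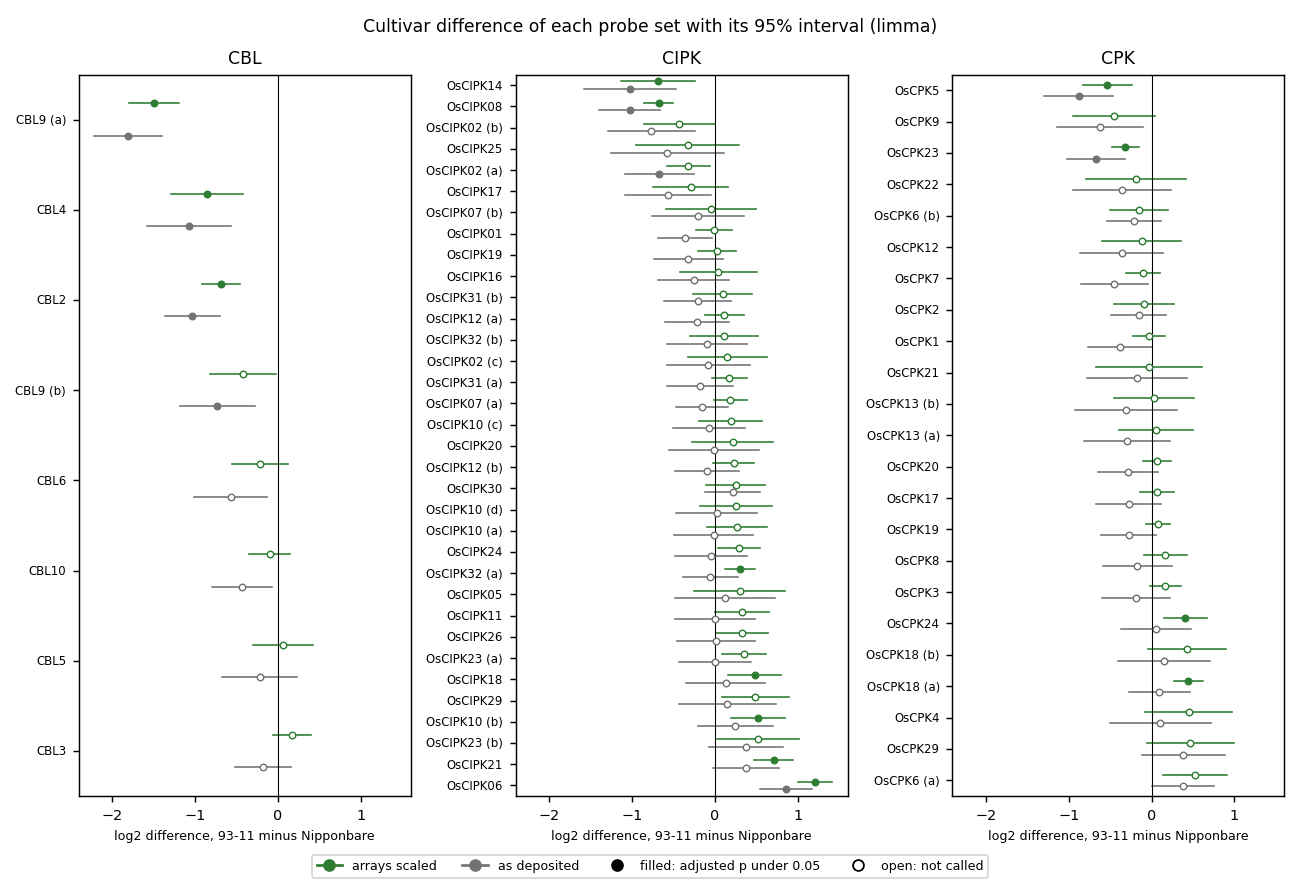
Log2 difference of 93-11 minus Nipponbare with its 95% interval for each of the 65 probe sets, after scaling (green, upper) and as deposited (grey, lower), ordered by the scaled difference within each class. Filled points passed an adjusted p of 0.05. Scaling moved the points to the right, and CBL9 (a), CBL4 and CBL2 stayed left of 0 while OsCIPK06 stayed right of it in both.

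Among the sensors, CBL9, CBL4 and CBL2 were lower in 93-11 in both fits, and CBL3, CBL5, CBL6 and CBL10 were not called in either. Lower signals came both from an expressed gene, CBL2, and from genes below the threshold, CBL4 and CBL9. CBL2, which in Arabidopsis sits with CBL3 on the vacuolar membrane, lies on rice chromosome 12 (LOC4352701 in the gene table). Its signal was 490.1, 339.7, 418, 426 and 504 on the 93-11 arrays, against 954, 1084, 842, 885 and 767 on the Nipponbare arrays. All 5 arrays of 93-11 were below all 5 of Nipponbare, with a log2 difference of -1.03 as deposited (SE 0.15, adjusted p = 0.000158) and of -0.69 after scaling (SE 0.11, adjusted p = 0.000386).

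CBL9 (LOC9269084, chromosome 1), whose Arabidopsis namesake joins CIPK23 in potassium uptake, was measured by a pair of probe sets, both of the kind in which some probes can also bind other transcripts. The first read 100.2, 63.8, 88.4, 48.8 and 77.0 on the 93-11 arrays, against 261, 372, 313, 307 and 255 on the Nipponbare arrays. The cultivars were far apart with no overlap, and this was the largest difference of any member, with a log2 difference of -1.81 as deposited (SE 0.19, adjusted p = 4.36e-06) and of -1.50 after scaling (SE 0.14, adjusted p = 2.87e-06). The second read 87.3, 90.9, 117, 73.0 and 116 on the 93-11 arrays, against 103, 224, 187, 194 and 163 on the Nipponbare arrays, so that Nipponbare replicate 1 fell within the 93-11 range. It was lower as deposited (log2 difference -0.73, adjusted p = 0.0307) and not called after scaling (-0.42, adjusted p = 0.162). The deposited call was lost in 6 of the 10 fits that left out 1 array, those without 93-11 replicate 1, 2 or 4 and those without Nipponbare replicate 2, 3 or 4.

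CBL4 (LOC4339432, chromosome 5) is the sensor of the salt pathway that activates the sodium exporter SOS1. Its signal was near the floor in 93-11, with 22.2, 8.80, 7.45, 12.3 and 24.8 on the 93-11 arrays, against 56.4, 69.3, 45.2, 39.0 and 35.6 on the Nipponbare arrays. The cultivars did not overlap, and the fit gave a log2 difference of -1.08 as deposited (SE 0.24, adjusted p = 0.00487) and of -0.86 after scaling (SE 0.20, adjusted p = 0.00838). Both cultivars lay below the expression threshold, and 16 is added before the logarithm, so the fitted difference understates the ratio of such weak signals.

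The other 4 sensor genes were not called. CBL6 was the strongest CBL, with 1642, 1223, 2416, 1648 and 1846 on the 93-11 arrays, against 2904, 3687, 1868, 2295 and 2387 on the Nipponbare arrays. It lay mostly lower in 93-11, with overlap, and missed the threshold as deposited (-0.57, 95% interval -1.01 to -0.14, adjusted p = 0.0829) and after scaling (-0.22, -0.56 to 0.12, adjusted p = 0.425). CBL3, at 955 ± 154 in 93-11 and 1086 ± 196 in Nipponbare, had an interval of -0.52 to 0.16 as deposited and of -0.06 to 0.40 after scaling. CBL10, which in Arabidopsis serves salt tolerance of the shoot, read 168 ± 16.5 in 93-11 and 235 ± 49.0 in Nipponbare, with an interval of -0.79 to -0.07 as deposited (adjusted p = 0.123) and of -0.35 to 0.14 after scaling. CBL5, whose gene also carries the synonym CBL2 in the gene table, read 52.2 ± 9.58 in 93-11 and 64.3 ± 15.6 in Nipponbare.

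OsCIPK06 was the single member of the 65 called higher in 93-11 in both fits. The gene (LOC4345687) is on chromosome 8 and its signal was 2689.5, 2198, 2650.2, 2308 and 2499 on the 93-11 arrays, against 1390.3, 1605, 1490.4, 1111 and 1213 on the Nipponbare arrays. Every 93-11 array was above every Nipponbare array before and after scaling, and the fit gave a log2 difference of 0.86 as deposited (SE 0.15, adjusted p = 0.000515) and of 1.21 after scaling (SE 0.10, adjusted p = 6.12e-07). Scaled signals were 2841 ± 73.5 in 93-11 and 1228 ± 184 in Nipponbare. In 93-11 it was the strongest CIPK signal, and in Nipponbare OsCIPK32, OsCIPK02 and OsCIPK23 read higher.

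**Figure D4:**
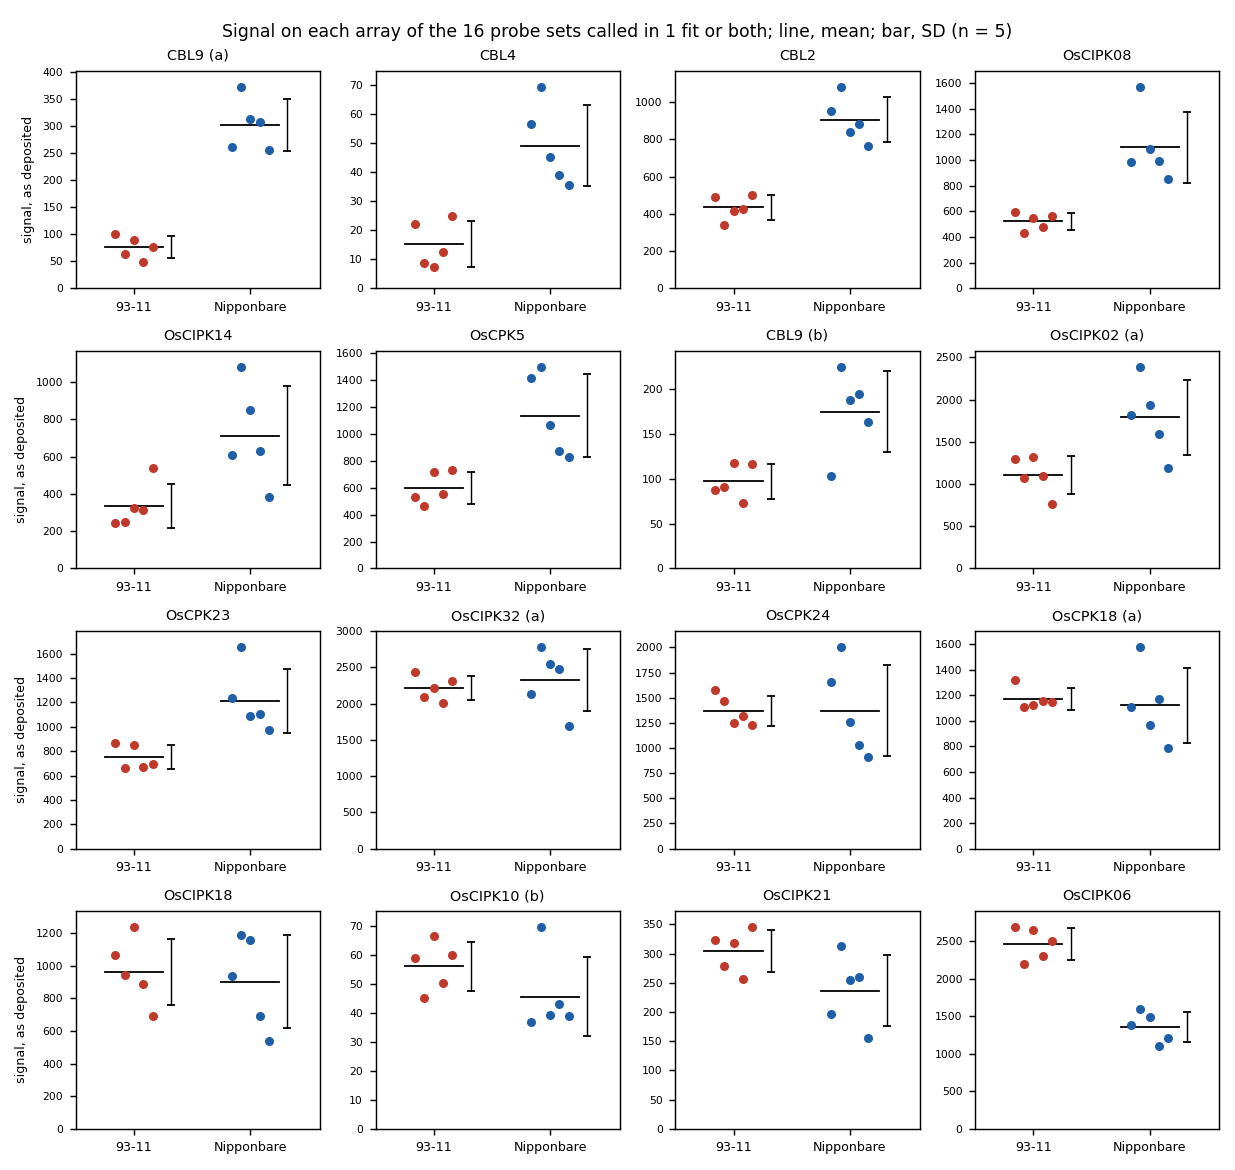
Signal as deposited on each array for the 16 probe sets called in the deposited fit, the scaled fit or both, 93-11 in red and Nipponbare in blue, ordered from the lowest to the highest deposited difference. The horizontal line is the mean and the bar the SD of 5 arrays, every axis starts at 0, and letters mark probe sets of 1 gene from the strongest. CBL9 (a), CBL4, CBL2, OsCIPK08, OsCPK5 and OsCPK23 show no overlap with 93-11 lower, and OsCIPK06 shows none with 93-11 higher.

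OsCIPK08 and OsCIPK14 were lower in 93-11. OsCIPK08, whose Arabidopsis namesake takes part in the nitrate response, read 591, 429.7, 547, 474 and 565 on the 93-11 arrays, against 986, 1569.7, 1087, 995 and 850.1 on the Nipponbare arrays. There was no overlap, and the fit gave a log2 difference of -1.03 as deposited (SE 0.17, adjusted p = 0.000493) and of -0.68 after scaling (SE 0.08, adjusted p = 3.13e-05). OsCIPK14 read 244, 251, 326, 316 and 539 on the 93-11 arrays, against 609.6, 1081, 852, 632 and 384 on the Nipponbare arrays. Here 93-11 replicate 5 was higher than Nipponbare replicate 5, so the groups overlapped, with a log2 difference of -1.03 as deposited (SE 0.26, adjusted p = 0.0133) and of -0.68 after scaling (SE 0.21, adjusted p = 0.0372). The scaled call was lost in 8 of 10 fits that left out 1 array, all but those without 93-11 replicate 5 and Nipponbare replicate 5.

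OsCIPK02 was called lower in 93-11 as deposited and not after scaling. The strongest of its 3 probe sets, some of whose probes can also bind other transcripts, read 1292, 1072, 1323, 1091 and 766 on the 93-11 arrays, against 1824, 2387, 1941, 1594 and 1195 on the Nipponbare arrays. Nipponbare replicate 5 overlapped the 93-11 arrays as deposited, while after scaling all 5 arrays of 93-11 were below all 5 of Nipponbare. The difference was -0.67 as deposited (adjusted p = 0.0326) and -0.32 after scaling (95% interval -0.57 to -0.06, adjusted p = 0.089). The deposited call was lost in 7 of 10 fits without 1 array, and was kept without 93-11 replicate 1 or 3 and without Nipponbare replicate 5. The second probe set had a difference of -0.77 as deposited (adjusted p = 0.0528), and the third, near the floor with 27.4 ± 11.4 in 93-11 and 29.2 ± 8.28 in Nipponbare, one of -0.08. OsCIPK29 lies directly beside OsCIPK02 on chromosome 7 with no protein-coding gene between them, and read 257 ± 51.3 in 93-11 and 251 ± 133 in Nipponbare without a call.

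Of the 6 members called higher after scaling alone, 4 were CIPK genes. OsCIPK21 had the largest scaled difference of the 6. Its deposited signals were 323, 278, 319, 256 and 345 on the 93-11 arrays, against 197, 314, 254, 260.5 and 156 on the Nipponbare arrays. Its scaled signals were 336, 348, 339.9, 319.6 and 407 on the 93-11 arrays, against 178, 204, 230.2, 244 and 186 on the Nipponbare arrays. The cultivars overlapped before scaling and not after it. Its difference was 0.37 as deposited (adjusted p = 0.246) and 0.71 after scaling (adjusted p = 0.000388), and the scaled call held in all 10 fits without 1 array. OsCIPK18 read 966 ± 203 in 93-11 and 904 ± 287 in Nipponbare as deposited, with a scaled difference of 0.48 (adjusted p = 0.0411), which was lost in 8 of 10 such fits, all but those without 93-11 replicate 5 and Nipponbare replicate 3. For OsCIPK32 the difference was -0.05 as deposited and 0.30 after scaling (adjusted p = 0.0256), lost in 4 of 10, those without replicate 1 or 2 of either cultivar. One of the 4 weak probe sets of OsCIPK10 read 56.2 ± 8.43 in 93-11 and 45.6 ± 13.6 in Nipponbare and had a scaled difference of 0.52 (adjusted p = 0.0302), kept in 3 of 10 fits, those without 93-11 replicate 2 and without Nipponbare replicate 2 or 5. Of these 4 calls, that of OsCIPK21 did not depend on a single array.

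Among the kinases with a calcium-binding domain of their own, OsCPK5 and OsCPK23 were lower in 93-11 in both fits. OsCPK5 read 527, 467, 716, 549 and 732 on the 93-11 arrays, against 1411, 1495, 1066, 869.9 and 823 on the Nipponbare arrays. The groups did not overlap as deposited. They overlapped after scaling, when 93-11 replicate 5 read 862 and Nipponbare replicate 4 read 814. The fit gave a log2 difference of -0.88 as deposited (SE 0.20, adjusted p = 0.00533) and of -0.54 after scaling (SE 0.14, adjusted p = 0.0154). Its probes match several transcripts according to the suffix of the probe set, so a related gene may share in the signal. OsCPK23, also named SPK and known for phosphorylating sucrose synthase in developing rice seeds, read 864, 665, 853, 671 and 697 on the 93-11 arrays, against 1236, 1655, 1089.8, 1105 and 977 on the Nipponbare arrays. It showed no overlap as deposited or after scaling, with a log2 difference of -0.67 as deposited (SE 0.16, adjusted p = 0.011) and of -0.32 after scaling (SE 0.07, adjusted p = 0.00831). Both calls held in all 10 fits without 1 array.

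OsCPK18 and OsCPK24 were called higher after scaling alone. OsCPK18, which takes part in the rice responses to blast fungus and to mycorrhizal fungi, had deposited signals of 1324, 1107, 1126, 1153 and 1145 on the 93-11 arrays, against 1112, 1579, 965, 1175 and 791 on the Nipponbare arrays. Its scaled signals were 1379, 1386, 1202, 1438 and 1349.5 on the 93-11 arrays, against 1003, 1026, 874, 1100.1 and 948 on the Nipponbare arrays. The cultivars overlapped before scaling and were apart after it. The difference was 0.09 as deposited (adjusted p = 0.807) and 0.44 after scaling (adjusted p = 0.00159), and the scaled call held in all 10 fits without 1 array. By its suffix, as for OsCPK5, the probes of this probe set match several transcripts, so a related gene may share in the signal. The weaker probe set of OsCPK18 was not called. OsCPK24, which acts in cold tolerance in rice, read 1370.4 ± 149.9 in 93-11 and 1373 ± 453 in Nipponbare as deposited, with a scaled difference of 0.40 (adjusted p = 0.0347), lost in 6 of 10 fits. They were those without 93-11 replicate 1, 2 or 4 and without Nipponbare replicate 3, 4 or 5.

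The other 49 members were called in neither fit, and 51 were not called after scaling. Of the 15 of these 51 expressed in both cultivars, 12 had a 95% interval within 0.5 of 0 and all 15 one within 1. These limits are on the log2(signal + 16) scale of the fit. Of the 33 of the 51 below the threshold in both cultivars, 7 had an interval within 0.5 and 32 one within 1. The added 16 makes the fitted difference understate the ratio of weak signals. For these members an interval within 1 therefore does not exclude a log2 ratio of signals beyond 1. For most of the weak members the interval reached beyond 0.5, so that it left room for a difference of that size. The pooled SD within cultivars was taken on log2 signals without the added 16, unlike the intervals. As deposited it had a median of 0.31 for members expressed in both and 0.55 for those expressed in neither. After scaling these medians were 0.16 and 0.45.

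Several probe sets were present for 11 genes, 25 in all, and they often read at very different levels. In 7 of these genes 1 probe set was expressed in both cultivars and another was not, and in 6 the mean log10 signals of the gene's probe sets were more than 1 apart. The widest gap was in OsCIPK23, at 3.24 on one probe set and 0.91 on the other, followed by OsCIPK32 at 3.35 and 1.31. OsCIPK10 differed from these, with 4 probe sets between 1.47 and 1.72, all below the threshold. In 5 of the 11 genes, CBL9, OsCIPK02, OsCIPK10, OsCIPK32 and OsCPK18, 1 probe set was called in one of the fits and another was not. The uncalled probe sets of both OsCIPK32, at 20.3 ± 4.58 in 93-11 and 23.7 ± 11.0 in Nipponbare, and OsCPK18, at 51.9 ± 14.2 in 93-11 and 46.7 ± 19.2 in Nipponbare, read far below their called partners. For OsCPK18 the scaled differences were alike, 0.44 on the strong and 0.43 on the weak probe set, of which the weak one was not called (adjusted p = 0.231). The 3 uncalled probe sets of OsCIPK10 had scaled differences of 0.27, 0.19 and 0.25.

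**Figure D5:**
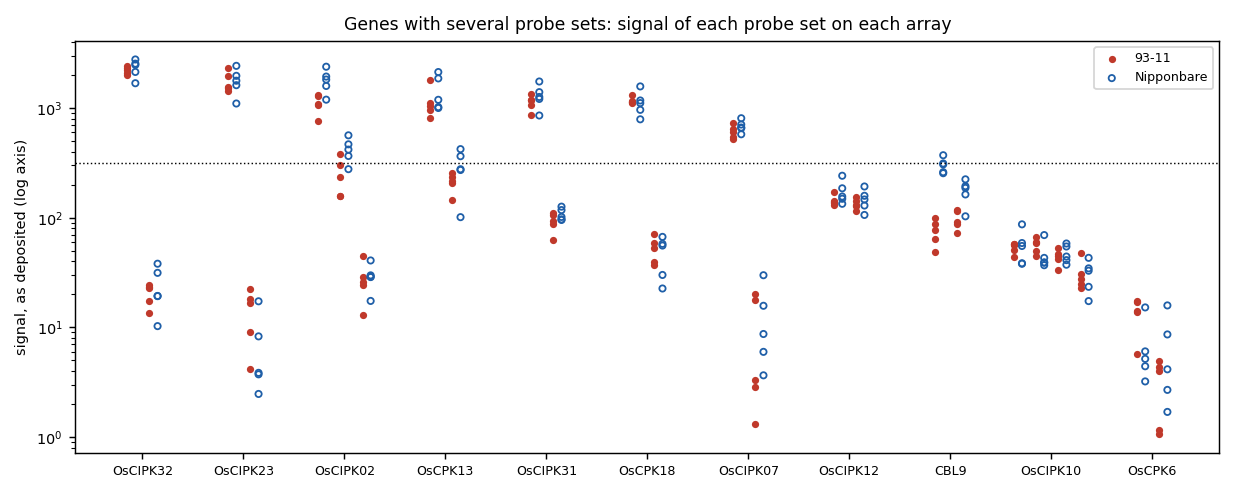
Signal as deposited on each array, on a log axis, for the 25 probe sets of the 11 genes with several, 93-11 in filled red left of Nipponbare in open blue, with the probe sets of a gene side by side from the strongest. The dotted line is the expression threshold. In 7 genes it separates 1 probe set from another, and the 4 probe sets of OsCIPK10 lie below it.

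Other calcium signalling genes were taken by symbol as well. Of 31 probe sets of calmodulins and calmodulin-like proteins, small EF-hand proteins that work through other enzymes, none was higher and 5 were lower in 93-11 in each fit. The share lower, 16.1%, was near that of all probe sets paired with 1 gene, 17.8% as deposited and 13.6% after scaling. CML4 had, on the probe set that was called, 50.0 ± 19.3 in 93-11 and 225 ± 94.3 in Nipponbare, a difference of -1.82 as deposited and -1.53 after scaling, while the other probe sets of the gene were not called. CML17 had 19.2 ± 8.53 in 93-11 and 94.9 ± 31.5 in Nipponbare, with -1.65 and -1.41, and CML18, the one of these that was expressed, 952 ± 439 in 93-11 and 2335 ± 1029.7 in Nipponbare, with -1.28 and -0.93. The strongest of the list, the calmodulin gene CAM2, read 5314 ± 652 in 93-11 and 6728 ± 1202 in Nipponbare and was not called.

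Calcium channels, pumps, exchangers and annexins had 16 probe sets, of which 1 was lower and none higher as deposited, and 1 lower and 3 higher after scaling. As shares these were 6.25% lower in each fit and 18.8% higher after scaling, beside 17.8% and 13.6% lower and 12.6% higher among probe sets paired with 1 gene. The lower one was GLR3.1, a glutamate receptor-like channel whose other probe set was not called, at 709 ± 85.4 in 93-11 and 1225 ± 319.9 in Nipponbare, with differences of -0.75 as deposited and -0.40 after scaling (adjusted p = 0.00882 and 0.0029). The higher ones were the channel TPC1 (0.55 after scaling on 1 of its probe sets, the other not called) and the calcium exchangers OsCAX2 (0.44) and OsCAX3 (0.34). The strongest, the calcium pump gene OsACA6, read 1001 ± 60.7 in 93-11 and 1506 ± 383 in Nipponbare without a call. The calcium and calmodulin-dependent kinase OsCCaMK, which serves root symbiosis, read 720.2 ± 162 in 93-11 and 1013 ± 271 in Nipponbare on the stronger of its probe sets, and neither was called.

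A further list took whole families by gene name, such as ion transporters, NADPH oxidases, SnRK2 kinases and type 2C protein phosphatases. Some members of these families are targets or partners of these kinases, and the role of each gene was not checked. Of the 123 probe sets of this list, 3 were higher and 18 lower as deposited, and 13 were higher and 13 lower after scaling. The shares of 2.44% higher and 14.6% lower as deposited, and of 10.6% each way after scaling, were near those of probe sets paired with 1 gene, 1.68%, 17.8%, 12.6% and 13.6% in the same order. The phosphatase gene OsPP2C75 had the largest difference, with 30.3 ± 13.5 in 93-11 and 336 ± 84.6 in Nipponbare on one probe set and 20.5 ± 3.41 in 93-11 and 222 ± 93.9 in Nipponbare on the other, and differences of -2.94 and -2.63 as deposited and of -2.67 and -2.37 after scaling. OsPP2C01 was lower as well, at 40.5 ± 5.86 in 93-11 and 149 ± 26.8 in Nipponbare, with -1.53 as deposited and -1.25 after scaling. RBOHB, an NADPH oxidase of the kind that CPK proteins phosphorylate and named here after its values were seen, had 817 ± 121 in 93-11 and 1540.1 ± 359 in Nipponbare, with -0.88 and -0.53. The 3 probe sets called higher in 93-11 in both fits were of phosphatase genes, and they are named here after their values were seen. OsPP2C73 read 101 ± 17.0 in 93-11 and 26.0 ± 9.56 in Nipponbare on the probe set that was called, with 1.49 as deposited and 1.76 after scaling, while the other probe sets of the gene were not called. OsPP2C62 had 1.40 as deposited on 1 of its probe sets, the other not called, and OsPP2C05 had 0.78. The strongest, the potassium transporter gene OsHAK5, read 6229 ± 536 in 93-11 and 8082 ± 1688 in Nipponbare on the stronger of its probe sets without a call. Another probe set of OsHAK5 read 1.63 ± 1.21 in 93-11 and 2.19 ± 2.98 in Nipponbare, near the floor, so its probe sets differ on whether it is detected. Of these 4 lists together, which hold 172 probe sets, 24 were called lower and 3 higher as deposited, and 19 were called lower and 16 higher after scaling.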

How the data were processed

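The authors deposited 1 signal intensity per probe set and array for panicles 2 cm long. The submitters' processing notes name GCOS 1.3. How probes were summarised is not given in the sources used here, nor is any scaling. Of 57381 probe sets, 123 Affymetrix controls were left out. The fit used limma 3.58.1 (R 4.3.3; lmFit, then eBayes with a trend on intensity) on log2(signal + 16), without a block. Differences are 93-11 minus Nipponbare, tests are two-sided, and p-values were adjusted over all 57258 rice probe sets by Benjamini-Hochberg. The fit was repeated with arrays scaled to a common trimmed mean, and was checked on simulated data. Python 3.11.15 served for summaries.

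Genes were assigned from the platform annotation, with symbols from RefSeq assembly ASM3414082v1, in which all 65 members were found. Of the rice probe sets, 22436 had 1 gene, 95 had several and 34727 were unnamed here. The members, lists and tests were chosen with earlier results of these data known. Named are members called in either fit, the 3 highest and 1 lowest signals of each class, members expressed in 1 cultivar alone, genes whose probe sets differ in call, and from other lists up to 3 called members and the strongest. Further members are named for a known role, after their values were seen. The number of arrays limits the precision. The labels call the 5 samples of each cultivar biological replicates. No 2 arrays held identical values.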

Additional observations from a re-analysis of the deposited data

Results flagged for a closer look

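In 5 of 64 groups of 5 arrays tested, 1 array lay far from the others of its cultivar, where chance gives about 1 in 20 groups. All 5 were signals of named members. CBL3 read 1433.9 on Nipponbare replicate 2, against 961 to 1028 on the other Nipponbare arrays, and the OsCIPK10 probe set called after scaling read 69.6 there, against 37.0 to 43.1. That array had the highest trimmed mean of all 10, 377. OsCIPK14 read 538.92 on 93-11 replicate 5, against 244 to 326 on the other 93-11 arrays. OsCPK2 read 10.586 on the same array, against 0.736 to 1.47, all of them near the floor of the array. The stronger OsCPK18 probe set read 1323.9 on 93-11 replicate 1, against 1107 to 1153 on the others. These signals are unscaled. After scaling, 3 of these lay within the range of the other arrays of their cultivar. They were CBL3 at 932 against 908 to 1152, OsCIPK10 at 45.3 against 33.3 to 46.8, and OsCPK18 at 1379 against 1202 to 1438. OsCIPK14, at 635 against 254 to 394, and OsCPK2, at 12.5 against 0.918 to 1.57, still lay above it. The cause was not tested.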

How the results depend on the processing

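The count of members higher in 93-11 as deposited, 1, became 7 after quantile normalization and 7 after scaling, and was 1 in each fit without 1 array. The count lower as deposited, 9, was 15 by the methods' t-test at an unadjusted p under 0.05 and 7 to 13 without 1 array. After scaling the 7 higher became 4 without the intensity trend, 12 by the ordinary t-test at an unadjusted p, and 4 to 8 without 1 array. The count was 4 when 93-11 replicate 1, 93-11 replicate 2 or Nipponbare replicate 1 was left out. The 7 lower after scaling were 6 or 7 without 1 array. No label ties the samples of the cultivars together by replicate number. Arrays of 1 number correlated at -0.07 to 0.22 after the cultivar means were taken off. Of the 5 arrays of 93-11, 2, replicates 4 and 5, correlated best with their own number in Nipponbare. Whether arrays of the same number were handled together was not tested. With that number as a block, 1 was higher and 10 lower as deposited, and 7 were higher and 7 lower after scaling. In the block fit the scaled calls of OsCIPK10 and OsCIPK14 were lost (adjusted p = 0.0594 and 0.0559), and the strongest OsCIPK02 probe set and the stronger OsCIPK23 probe set were called after scaling (adjusted p = 0.0274 and 0.0457). The 26 members expressed in both cultivars became 12 at a threshold of 3.0, and were 25 or 26 without 1 array. The median difference of all members, -0.19, was 0.10 after scaling and 0.14 after quantile normalization. The stronger OsCIPK32 probe set turned to a call of 0.30 after scaling. Over the 31 named members in both fits, alternatives ended a call 67 times, gave one 31 times, and turned the sign of an uncalled difference 44 times. The cause of these changes was not tested.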
